A study of Homo sapiens with 2 samples.

Results

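Promoter contacts of 8 genes that encode architectural proteins of the chromosome were described in K562 cells by promoter-capture Hi-C. The genes were CTCF, YY1, the cohesin genes STAG1, SMC3, RAD21, NIPBL and WAPL, and the Mediator gene MED1. An interaction was taken when either of its ends lay on a listed bait fragment that holds an end of the gene on build hg38. By this rule 7 of the 8 genes had a listed bait fragment, and NIPBL had none. These 7 genes lay on 8 bait fragments of 17883, and they are 7 of 13721 protein-coding genes with a listed bait fragment. Their interactions numbered 46 of 84049 in the DMSO list and 67 of 91305 in the ponatinib list.

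Promoter-capture Hi-C ligates DNA ends that lie close together in the nucleus and pulls out the pairs with a promoter fragment at an end. K562 is a cell line from a chronic myelogenous leukaemia that carries the BCR-ABL1 fusion. The control cells received the vehicle DMSO and the treated cells 100 nM ponatinib, a kinase inhibitor that acts on BCR-ABL1, for 24 h in both cases, and 20000000 cells were harvested for each library. The comparison asks how promoter contacts stand after the kinase is inhibited. Pairs that join chromosomes 9 and 22, which are fused in this line, numbered 1654 in DMSO and 1781 in ponatinib. Each treatment is 1 library, so differences between them were not checked in replicates and none was tested. The depth in reads is unknown. Scores are the authors' values, and neither list holds one below 5. A gene listed at 0 therefore has no interaction at that threshold, and contacts below it were not analysed here.

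CTCF binds DNA at insulator sites and stops the extrusion of chromatin loops there. Cohesin is a ring built from SMC1A, SMC3 and RAD21 with STAG1 or STAG2 attached. NIPBL loads it and drives loop extrusion, and WAPL releases it from DNA. YY1 is a zinc finger factor that binds promoters and enhancers, and Mediator, of which MED1 is a subunit, passes signals from enhancer-bound factors to RNA polymerase. The measurements below are contacts of the genes that encode these proteins. They hold no information on where the proteins bind.

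The fragments compared are the pieces that HindIII leaves when it cuts at AAGCTT. The promoter of SMC3 shows such a cut, so its sequence is given first. The RefSeq promoter table (GRCh38.p14) held 7 of the 8 genes, and RAD21 had no entry. The 250 bases before the SMC3 start at chr10:110567445-110567694 (plus strand) read as follows, with the HindIII site in capitals.
SMC3: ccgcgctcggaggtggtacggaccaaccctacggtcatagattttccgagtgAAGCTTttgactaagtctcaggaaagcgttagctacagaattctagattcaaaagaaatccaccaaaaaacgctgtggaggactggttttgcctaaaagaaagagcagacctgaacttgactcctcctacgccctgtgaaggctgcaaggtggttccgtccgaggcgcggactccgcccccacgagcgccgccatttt
The site begins at 110567497, which is 198 bases before the start of transcription at 110567695. The SMC3 bait fragment begins at 110567498, inside the site, and runs to 110569678. Most of the SMC3 upstream sequence shown is thus on the captured fragment and the first part of it is not. A HindIII site was in 5.02% of all 35116 promoters over the same length.

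CTCF and YY1 are the 2 genes of the 8 whose start fragments were listed in ponatinib only, and the 250 bases before their starts are shown for that reason. Capitals mark CCCTC or its reverse complement GAGGG, a short stretch within the motif of CTCF. The positions are chr16:67562276-67562525 for CTCF and chr14:100238894-100239143 for YY1, both on the plus strand.
CTCF: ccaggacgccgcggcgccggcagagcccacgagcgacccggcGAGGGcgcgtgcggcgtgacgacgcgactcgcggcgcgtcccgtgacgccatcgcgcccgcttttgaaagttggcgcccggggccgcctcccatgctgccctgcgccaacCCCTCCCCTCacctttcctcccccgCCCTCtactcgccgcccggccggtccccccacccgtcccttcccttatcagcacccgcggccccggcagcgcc
YY1: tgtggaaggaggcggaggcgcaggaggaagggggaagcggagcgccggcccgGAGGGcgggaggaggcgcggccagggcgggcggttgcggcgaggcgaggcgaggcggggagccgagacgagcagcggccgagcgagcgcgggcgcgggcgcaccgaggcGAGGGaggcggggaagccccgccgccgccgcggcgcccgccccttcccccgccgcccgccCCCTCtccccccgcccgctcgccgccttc
On both strands together CTCF held 4 matches, 2 of them side by side, and YY1 held 3. A match was in 66.6% of all promoters of this length, so these letters are common. STAG1 had 2, NIPBL 3 and WAPL 1, and none was in the windows of SMC3 and MED1. The letters GCCAT, which lie in the motif of YY1, were found once on either strand in CTCF, SMC3, WAPL and MED1, and were in 29.4% of all promoters.

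The genes fell into 3 kinds by number. CTCF and YY1 were listed in ponatinib only, STAG1 and SMC3 had more interactions in ponatinib, and RAD21, WAPL and MED1 had fewer. CTCF had 0 in DMSO and 9 in ponatinib, and YY1 had 0 and 4. STAG1 had 24 and 39, with 19 in both lists. SMC3 had 2 and 7 with 1 shared, RAD21 had 8 and 4 with 2 shared, WAPL had 5 and 3 with none shared, and MED1 had 7 and 1 with 1 shared. STAG1 alone thus supplied more than all the others together, and the other genes stood at small numbers.

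**Figure D1:**
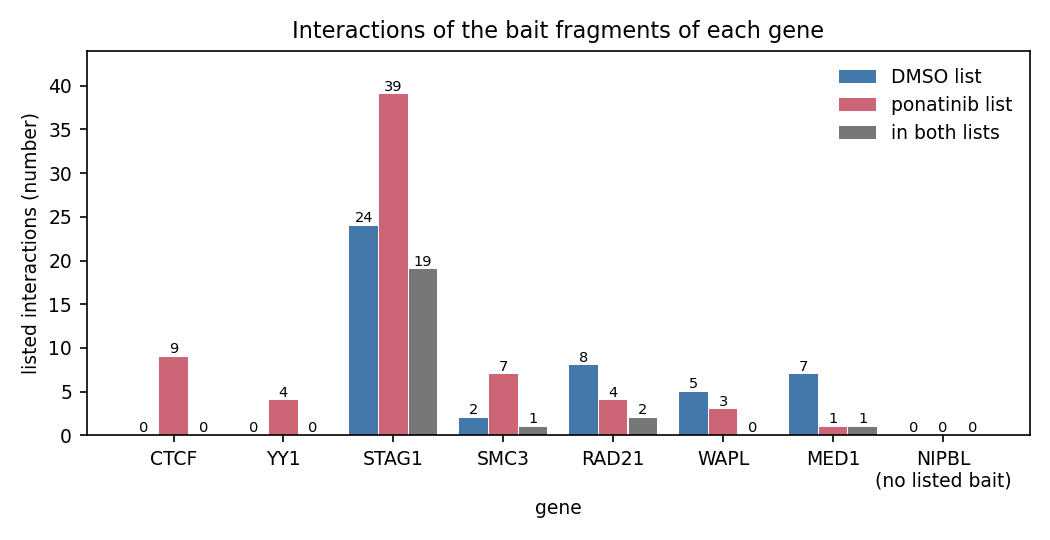
Number of listed interactions (vertical axis) on the bait fragments of each gene in the DMSO list, in the ponatinib list and in both lists. The bars of STAG1 reach 24, 39 and 19, CTCF and YY1 have no DMSO bar, and NIPBL has no listed bait fragment.

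Of the 46 and 67 interactions of the 8 genes in the lists, 59.3% were in ponatinib, with an exact 95% binomial interval of 49.6 to 68.4%. The share over all interactions was 52.1%, which lies inside it. It lay outside in 2 alternatives. At scores of at least 7 the 8 genes had 68.8% (53.7 to 81.3%) and all interactions 53.2%. With start fragments only the share was 65.3% (54.8 to 74.7%) against 52.1%. That alternative covers 6 genes. It leaves out RAD21, with 8 in DMSO and 4 in ponatinib, because the promoter table gave no start for it. Also left out is the MED1 fragment that does not hold its start, with 5 in DMSO and 1 in ponatinib. The interval covers counting error only and treats neighbouring fragments as independent. It also counts each of the 23 shared pairs once per list, 19 of them of STAG1, as if these were independent. The intervals of these shares are therefore approximate. The share was 61.9% for STAG1 (48.8 to 73.9%), 77.8% for SMC3 (39.99 to 97.2%), 100% for CTCF (66.4 to 100%) and 100% for YY1 (39.8 to 100%). It was 33.3% for RAD21 (9.92 to 65.1%), 37.5% for WAPL (8.52 to 75.5%) and 12.5% for MED1 (0.316 to 52.7%). All of these intervals but that of CTCF hold 52.1%. Without CTCF the genes had 46 and 58, or 55.8% in ponatinib.

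A gene with 5 or more interactions, both lists added, was called different when (ponatinib + 1)/(DMSO + 1) was at least 2 or at most 0.5. Of the 8 genes 6 reached the minimum. CTCF and SMC3 were called higher, against 9.92% of the 9787 genes that reached it. MED1 was called lower, against 6.26%. Over all genes 971 were higher and 613 lower, and with the ponatinib list cut to the DMSO length 722 and 827, so this balance depends on list length. STAG1, RAD21 and WAPL were not called, and YY1, with 4 interactions, was under the minimum. These calls rest on small numbers. With a minimum of 10 interactions CTCF, SMC3 and MED1 all fell below it, so none of the 3 calls was left. With all overlapping bait fragments SMC3 was not called, while CTCF was. MED1 was under the minimum of 5 with its start fragment only or at scores of at least 7. RAD21 was called lower with the ponatinib list cut to the DMSO length (8 and 3), and WAPL with pairs on 1 chromosome (5 and 2). By total number STAG1 ranked 252 of 13721 genes with 63 interactions over both lists. The median gene had 9, which is the number of CTCF and SMC3. RAD21 had 12, WAPL and MED1 had 8 each.

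**Figure D2:**
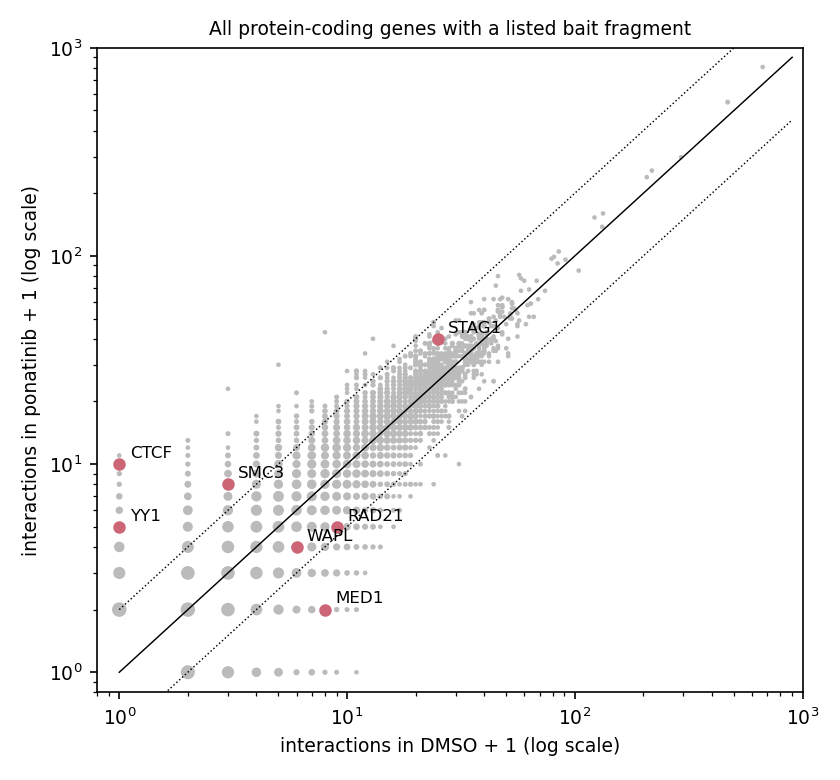
Interactions per gene plus 1 in DMSO (horizontal) and ponatinib (vertical), both on log scales, for the 13721 genes with a listed bait fragment. Grey points grow with the number of genes at that place, the solid line marks equal numbers and the dotted lines a 2-fold ratio. CTCF, SMC3 and YY1 lie above the upper dotted line, with YY1 under the minimum of 5, and MED1 lies below the lower line.

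CTCF, the insulator gene, lies on chromosome 16 from 67562526 to 67639177. Its start fragment, 67558800 to 67564748, also holds ends of CTCF-DT and LOC124903703, so contacts of these genes cannot be told apart from its own. In DMSO this fragment was in no interaction at either end. In ponatinib it had 9 partners with scores of 5.44 to 17.71. The highest, 17.71, joined it to a fragment inside CTCF itself, 55.1 kb downstream (67613165 to 67620616), and lies above 95% of the ponatinib list, whose 95th percentile is 16.73. Next came a fragment 313 kb away with ends of NUTF2, a nuclear import gene, and EDC4, a gene of messenger RNA decapping, at 9.5. The adjoining fragment inside EDC4, 316 kb away, scored 7.79. A fragment 95.7 kb away that holds ends of CARMIL2, ACD, PARD6A and ENKD1 scored 9.04. ACD encodes a protein of the telomere cap.

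The other CTCF partners had lower scores. The fragment at 696 kb with ends of PLA2G15, LOC124903704 and SLC7A6, an amino acid transporter gene, scored 7.64. That at 419 kb with an end of DPEP3 scored 6.61. A second CARMIL2 fragment at 83.6 kb scored 5.93. The fragment with ends of LOC124903702, HSD11B2, a steroid enzyme gene, and ATP6V0D1, a proton pump subunit gene, scored 5.51, and at 129 kb it was the only partner towards lower coordinates. The farthest cluster also held a fragment at 676 kb with ends of NFATC3, ESRP2, MIR6773 and PLA2G15, at 5.44. Of the 9 scores, 4 were below 7 and 1 was at least 10.

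All 9 partners of CTCF were themselves bait fragments, so each pair joined captured fragments. Over the whole ponatinib list 18.7% of interactions did. Among other ponatinib interactions with both ends within 1 Mb of the CTCF fragment the share was 39.0% (122 of 313), and in DMSO it was 44.1% (115 of 261). Of 3773 bait fragments with at least 9 interactions in ponatinib, 29 (0.769%) had bait partners only. The cut of 9 is the number of the CTCF fragment itself. The fragments compared also include those with more interactions and were not matched for region. Each of the 9 partner fragments was in DMSO interactions with other fragments, from 5 to 14 each. The CTCF start fragment itself was in none, and how well it was captured in DMSO was not tested. Of all 17883 bait fragments, 1665 (9.31%) were in no DMSO interaction and 1567 (8.76%) in no ponatinib interaction. The fragments without a DMSO interaction had a median of 1 in ponatinib, and 6 of them had at least 9. Of the fragments without a ponatinib interaction, 2 had at least 9 in DMSO. CTCF was 1 of 3 genes with 0 in DMSO and at least 9 in ponatinib, next to RNPS1 and RNASE13. In the other direction 1 gene had 0 in ponatinib and at least 9 in DMSO.

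A second listed bait fragment lies inside CTCF and holds none of its ends, so it is outside the rule; it was looked at after the values of the start fragment were known. This inner fragment, 67613165 to 67620616, had 7 in the DMSO list and 8 in the ponatinib list, of which 3 were the same pairs. It contacted the fragment next to the start fragment, 67564749 to 67569548, in both lists, at 7.32 in DMSO and 7.82 in ponatinib. The shared partners with ends of AGRP, 134 kb away, and of LOC100505942, 87.4 kb away, scored 7.23 and 10.88 and 9.79 and 8.51. In DMSO the inner fragment also had the DPEP3 fragment at 6.61, which in ponatinib was a partner of the start fragment at 6.61. With both CTCF fragments counted, the gene had 7 in DMSO and 16 in ponatinib, or 69.6% in ponatinib (47.1 to 86.8%), and that interval holds 52.1%. Fragments inside CTCF that are no bait were partners of listed bait fragments once in DMSO and 6 times in ponatinib. Within 10 kb at both ends, 3 of the 9 ponatinib pairs of the start fragment had a counterpart in DMSO, and within 5 kb 1 had.

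**Figure D3:**
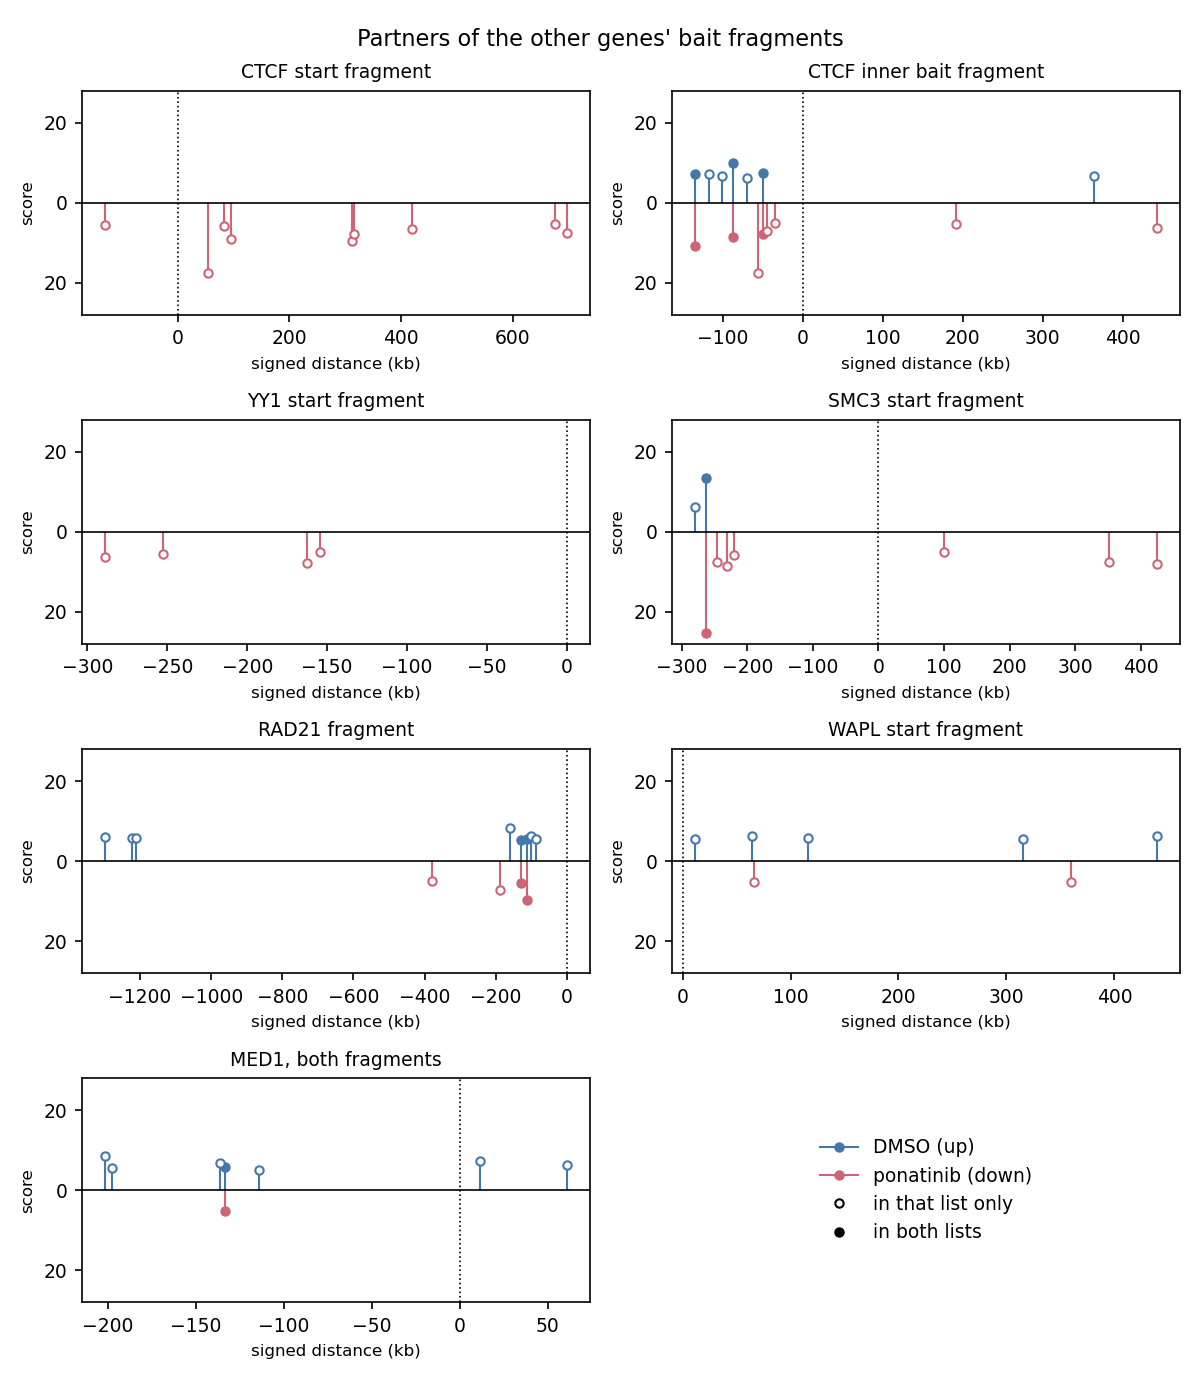
Score of each interaction (vertical, DMSO upwards and ponatinib downwards) against its signed distance in kb from the bait fragment, positive towards higher coordinates, for all genes but STAG1 and NIPBL and for the inner CTCF fragment. Filled points are in both lists and open points in that list only. The CTCF and YY1 start fragments have points below the line only, and the 1 WAPL pair between chromosomes is not drawn.

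YY1, on chromosome 14 from 100239144 to 100282788, showed the same order at its start and the opposite order next to it. Its start fragment, 100236952 to 100240793, shares an end of YY1-DT and had 0 interactions in DMSO and 4 in ponatinib. All 4 lay towards lower coordinates. A fragment inside EVL, a gene of actin regulation, scored 7.86 at 163 kb. Other fragments inside EVL scored 5.01 at 154 kb and 5.49 at 253 kb. The remaining one, with ends of LOC102724682 and RNU1-47P, scored 6.39 at 289 kb. The neighbouring bait fragment inside YY1, 100241271 to 100265644, had 6 in DMSO and 1 in ponatinib. In DMSO it contacted the EVL fragment that the start fragment contacted in ponatinib, 99981917 to 99990081, at a score of 6.58. With both fragments counted YY1 had 6 and 5, so the order of the start fragment was turned.

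STAG1 encodes the cohesin subunit that, as an alternative to STAG2, ties the ring to CTCF. The gene spans 136336236 to 136752378 on chromosome 3, and its start fragment, 136746509 to 136753716, also holds an end of STAG1-DT. It had 44 partners over both lists, of which 5 were in DMSO only and 20 in ponatinib only. Sharing was higher than in the lists as a whole by share of the DMSO list: 79.2% of its DMSO interactions were also in ponatinib (57.8 to 92.9%), against 44.3% of all. From the ponatinib side it was 48.7% (32.4 to 65.2%), against 40.7%. All 14 STAG1 scores of at least 10, 6 in DMSO and 8 in ponatinib, belonged to pairs in both lists. The scores of pairs in ponatinib only ran from 5.02 to 9.67.

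Inside the gene STAG1 had 22 partner fragments, 12 in DMSO and 19 in ponatinib with 9 shared, and most lay near its 3′ part. From 408 to 316 kb downstream of the start fragment there were 14 partners, 6 in DMSO and 12 in ponatinib, with 4 shared. The highest of these, 360 kb away at 136389098 to 136391936, scored 15.01 in DMSO and 19.37 in ponatinib. The fragment before it, 362 kb away, scored 9.41 and 11.61. Those at 354 and 370 kb were also in both lists, with 5.4 and 7.39 at the first and 6.36 and 5.59 at the second. In ponatinib only there were 8, with scores from 5.33 to 9.6, of which the highest was at 346 kb. In DMSO only there were 2, at 389 kb with 5.78 and at 408 kb with 5.35. Grouping by gaps of under 50 kb between neighbouring partners was chosen after the values were seen.

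Nearer to the start, 6 partners lay 169 to 209 kb into the gene, 4 in DMSO and 5 in ponatinib. The 3 shared ones had the higher score in ponatinib: 5.06 and 9.15 at 169 kb, 6.06 and 9.33 at 199 kb, and 5.96 and 5.97 at 209 kb. A bait fragment inside STAG1 118 kb away scored 13.86 and 14.6. Another, 26.9 kb away and holding an end of RNU6-789P, scored 9.65 in DMSO and 5.3 in ponatinib. These inner bait fragments had 11 and 8 interactions and 3 and 6 interactions of their own.

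Beyond its 3′ end STAG1 contacted MSL2, PCCB and PPP2R3A. MSL2 encodes a ubiquitin ligase of a histone acetylation complex, and its bait fragment 554 kb away scored 21.12 in DMSO, the highest score of the gene there, and 17.57 in ponatinib. PCCB, a mitochondrial carboxylase gene, scored 9.55 and 17.65 at 505 kb. Fragments further inside PCCB at 488 and 477 kb were in ponatinib only, at 9.67 and 5.84, as was 1 inside MSL2 at 565 kb with 6.46. PPP2R3A encodes a phosphatase subunit. Within it 6 neighbouring partners lay 648 to 681 kb away, 5 in DMSO and 5 in ponatinib with 4 shared. The 2 farthest of these scored 11.05 and 15.35 at 681 kb and 18.74 and 11.32 at 667 kb, so the lists ranked them in opposite order. A bait fragment with an end of PPP2R3A, 785 kb away, was in ponatinib only at 6.79.

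Seen from the other end, the MSL2 fragment contacted 10 STAG1 fragments, 3 in DMSO and 9 in ponatinib with 2 shared. The PCCB fragment contacted 9, 6 in DMSO and 4 in ponatinib with 1 shared, so the numbers of these neighbours went opposite ways.

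On the other side of the start the partners lay mostly 250 to 287 kb upstream, at 136996756 to 137043205. There were 8 of them, 4 in DMSO and 7 in ponatinib with 3 shared. The highest overlapped no gene and scored 15.42 in DMSO and 16.74 in ponatinib at 263 kb. Next to it, fragments at 267 and 271 kb scored 6.87 and 5.39 and 8.48 and 8.16. Fragments inside IL20RB, a cytokine receptor gene, at 250 and 256 kb were in ponatinib only, at 7.64 and 6.23. Closer in, the fragment with ends of SLC35G2 and SULT1D1P2 at 62.8 kb scored 5.23 and 5.02. A fragment with an end of IL20RB-AS1 that lies in NCK1, an adaptor protein gene, was in ponatinib only at 198 kb with 7.34.

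**Figure D4:**
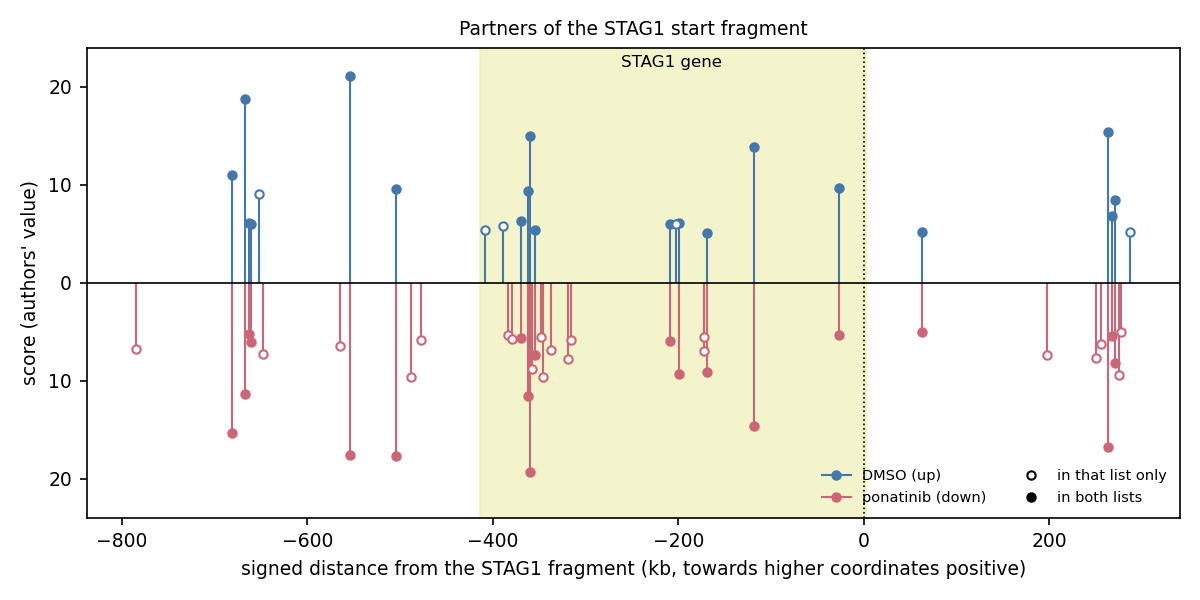
Score of each STAG1 interaction (vertical, DMSO upwards, ponatinib downwards) against its signed distance in kb from the start fragment, with the gene shaded. Filled points are in both lists. At 554, 360 and 263 kb the score was above 15 in both lists, and every pair in only one list scored below 10.

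The partners of STAG1 in 1 list only lay close to partners in the other. Of 20 in ponatinib only, 12 had a DMSO partner within 5 kb and 16 within 10 kb. Of 5 in DMSO only, 4 had a ponatinib partner within 5 kb. With a match within 5 kb 79.5% of the 44 pairs were found in both lists, against 58.1% of all interactions. That comparison was not matched for the number of partners, of which STAG1 has many side by side. Of 19 shared STAG1 pairs 11 had the higher score in ponatinib, and over all shared interactions it was 19949 of 37194. Scores were not normalised between the lists, so these are counts of values side by side.

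SMC3 encodes a core subunit of the ring and spans 110567695 to 110606048 on chromosome 10. Its start fragment had 2 interactions in DMSO and 7 in ponatinib. The shared pair joined it to the start fragment of SMNDC1, a splicing factor gene, 264 kb away (110301333 to 110308227), at 13.34 in DMSO and 25.39 in ponatinib, above the 95th percentile of the ponatinib list. In DMSO only, a fragment with ends of MXI1 and SMNDC1 at 280 kb scored 6.1. In ponatinib only, 3 fragments that overlap no gene lay just inside these, at 247, 231 and 220 kb with 7.48, 8.56 and 5.72. Towards higher coordinates, also in ponatinib only, a fragment in RBM20 scored 5.03 at 100.3 kb. One with ends of BBIP1 and SHOC2 scored 7.51 at 351 kb, and 1 inside SHOC2, a gene of RAS signalling, scored 8.11 at 424 kb.

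The SMNDC1 fragment contacted SMC3 along its length, and there the lists were alike. It had 12 partner fragments in SMC3, 11 in DMSO and 11 in ponatinib with 10 shared, out of 37 and 35 interactions of its own. The bait fragment inside SMC3, 110571513 to 110577570, had 18.46 and 18.02 with it. The fragment at 110600656 to 110602221 had 22.57 and 14.23. That inner bait fragment had 4 interactions in DMSO and 1 in ponatinib, and among the 4 was the BBIP1 and SHOC2 fragment at 7.49, which in ponatinib was a partner of the start fragment. With both SMC3 fragments counted the gene had 6 and 8.

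RAD21 encodes the subunit that closes the ring, at 116845934 to 116874776 on chromosome 8. The bait fragment that holds its upper end, 116872423 to 116877555, also holds ends of RAD21-AS1 and MIR3610, and was in 8 DMSO and 4 ponatinib pairs. Both shared partners overlapped EIF3H, a translation factor gene. That with ends of EIF3H and UTP23 at 112 kb scored 5.5 in DMSO and 9.66 in ponatinib, and that with an end of LOC124902006 at 129 kb scored 5.26 and 5.45. The nearer partners in DMSO only scored 8.28 in EIF3H at 160 kb, 6.36 with an end of UTP23 at 101 kb, and 5.47 at 86.9 kb. In ponatinib only, a fragment in EIF3H at 188 kb scored 7.33 and 1 with no gene at 380 kb scored 5.03.

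The 3 farthest partners of RAD21, and the only pairs beyond 1 Mb among these genes, were in DMSO only. All lay inside TRPS1, a transcriptional repressor gene, at 1212, 1222 and 1298 kb, with scores of 5.65, 5.73 and 5.98. At scores of at least 7 RAD21 kept 1 interaction in DMSO and 2 in ponatinib, which turns its order, and at 10 none was left.

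By the rule WAPL, which releases cohesin, had 8 interactions over both lists, where the median gene had 9. NIPBL, which loads cohesin, had no listed bait fragment, so the rule gives no number for it to set beside these. The WAPL start fragment, 86507660 to 86524233 on chromosome 10, also holds an end of WAPL-DT. It had 5 DMSO and 3 ponatinib pairs, none of them shared, and every score was below 7. Of all interactions with scores from 5 to 7, 29.4% in DMSO and 25.9% in ponatinib were also in the other list. In DMSO the WAPL partners lay at 11.7, 64.2, 116, 316 and 439 kb with 5.53, 6.37, 5.64, 5.56 and 6.3. The last of these were in BMPR1A, a receptor gene, and MMRN2. In ponatinib they lay at 66.4 kb with 5.18, next to a DMSO partner, in BMPR1A at 360 kb with 5.26, and on chromosome 5 with 6.03. The last is the only pair between chromosomes among these genes. A bait fragment inside WAPL that is outside the rule, 86484622 to 86494881, had 1 interaction in DMSO and 2 in ponatinib, with 1 shared. With both WAPL fragments counted the gene had 6 and 5.

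NIPBL lies at 36876769 to 37066413 on chromosome 5, and no listed bait fragment held an end of it or overlapped it. Fragments inside it were partners of bait fragments elsewhere, 14 times in DMSO and 14 times in ponatinib, with 7 shared. Of these, 11 and 12 were with 1 bait fragment, 36724572 to 36729955, which holds an end of SLC1A3-AS1 and lies 212 to 333 kb away. The highest scores of this bait fragment in NIPBL were 9.56 in DMSO, where ponatinib had 7.01, and 11.28 in ponatinib, where DMSO had 7.29. Both fragments lay between 37002595 and 37007919.

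MED1 encodes a Mediator subunit that binds nuclear receptors and spans 39404285 to 39451263 on chromosome 17. It had 7 interactions in DMSO and 1 in ponatinib over its 2 fragments. The start fragment, 39448482 to 39452786, had 2 and 0. The other fragment, 39397580 to 39405334, had 5 and 1. It holds the 3′ end of MED1 and the start of FBXL20, a ubiquitin ligase subunit gene, so its contacts cannot be assigned to either gene. In DMSO both fragments contacted the start fragment of CDK12, a kinase gene of transcription elongation, at 7.27 over 11.7 kb and at 6.21 over 60.9 kb. Neither pair was in the ponatinib list.

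The start fragment of MED1 had 1 more partner in DMSO, with an end of FBXL20, at 198 kb and 5.47. The other fragment contacted a fragment with ends of CACNB1, LOC124903996 and RPL19, a ribosomal protein gene, at 202 kb with 8.52, and 3 fragments in FBXL20. Those at 114 and 137 kb had 5.04 and 6.91 in DMSO only. The single interaction in ponatinib, at 133 kb, was shared and scored 5.82 in DMSO and 5.17 in ponatinib. Over the DMSO list 5 of the 7 MED1 scores were below 7, and at scores of at least 7 MED1 had 2 and 0.

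Across the 8 genes 23 of 90 pairs were in both lists, or 25.6% (16.9 to 35.8%), against 26.9% of all 138160 pairs. Most of these were of STAG1, and without it 4 of 46 pairs were shared, 8.70% (2.42 to 20.8%). Pairs with scores of at least 10 were mostly shared. In DMSO 12 of 31 pairs with scores from 5 to 7 were also in ponatinib, 4 of 8 from 7 to 10, and 7 of 7 from 10. Over all DMSO interactions the shares were 29.4%, 56.0% and 84.0%. In ponatinib 9 of 34 pairs from 5 to 7 were also in DMSO, 5 of 23 from 7 to 10, and 9 of 10 from 10, where all interactions had 25.9%, 49.8% and 78.9%. The exception from 10 is the CTCF pair at 17.71. In ponatinib the middle range was thus shared no more often than the lowest among these genes. The median distance was 264 kb in DMSO and 283 kb in ponatinib, against 234 and 242 kb in the whole lists. Pairs with bait fragments at both ends numbered 10 of 46 in DMSO (21.7%) and 21 of 67 in ponatinib (31.3%, 20.6 to 43.8%). Over the whole lists the shares were 19.1% and 18.7%. Without CTCF such pairs of these genes were 12 of 58 in ponatinib, 20.7%.

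**Figure D5:**
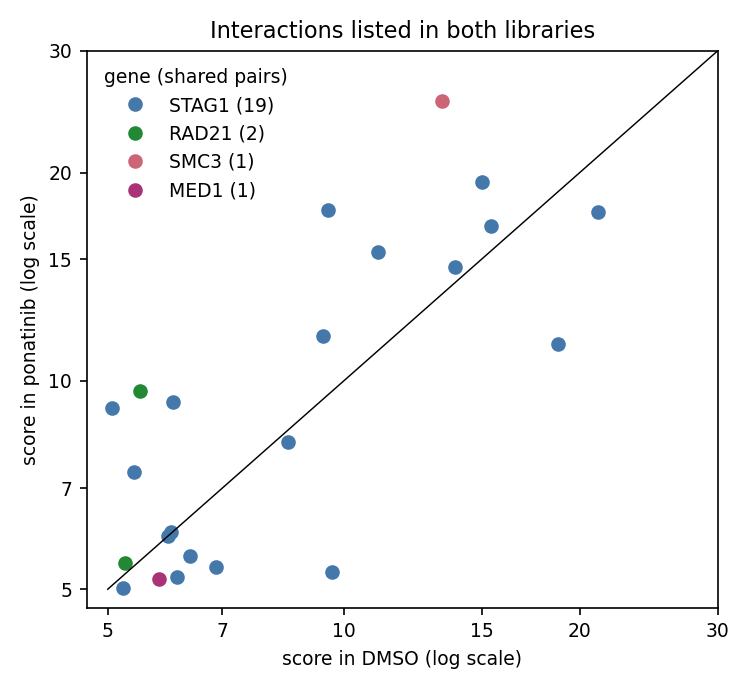
Scores of the 23 interactions in both lists, DMSO on the horizontal and ponatinib on the vertical axis, both on log scales, coloured by gene, with a line at equal scores. Of these, 14 lie above the line, and the SMC3 to SMNDC1 pair stands at 13.34 and 25.39.

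Other genes of the same complexes were set beside these. Of 14 genes of cohesin and its regulators 13 had a listed bait fragment, 5 had more interactions in ponatinib and 3 fewer. Of 11 with at least 5 interactions, SMC3 and MAU2, the partner of NIPBL in loading, were at least 2-fold higher and none was lower, where 9.92% of all genes were higher and 6.26% lower. The SMC3 call ended with both of its bait fragments counted. MAU2 had 3 and 9 on fragments that also hold ends of GATAD2A, LOC124904656 and SUGP1. STAG2 had 2 and 2, SMC1A 1 and 1, PDS5A 10 and 9 and PDS5B 10 and 10. The median log2 ratio of the list was 0.0, and that of all genes was 0.08. Among 7 insulator and looping factors 6 had a listed bait fragment. Of 5 with at least 5 interactions only CTCF was called, as higher, against the same 9.92% of all genes, while LDB1, a looping cofactor of erythroid genes, had 5 and 10 and ZNF143 had 5 and 6.

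Mediator genes are given by direction as well, with no test. Of 25 with a listed bait fragment, out of 33, 16 had fewer and 6 more, or 64.0% fewer against 37.3% of all genes, and the median log2 ratio was -0.31. Of 20 with at least 5 interactions MED1 alone was called lower and none higher, against 6.26% and 9.92% of all genes. Many of the differences were of 1 to 3 interactions, as in MED21 with 6 and 5 and MED23 with 4 and 3. MED28 had 16 and 9 on a fragment with ends of LAP3 and MED28-DT, MED20 had 42 and 37 on 2 fragments that together also hold an end of USP49, and MED13L had 22 and 20. MED12 had 15 in each list, and MED13 had 0 and 4. At scores of at least 7, 11 of 22 Mediator genes had fewer and 6 more, against 34.1% fewer of all genes, and the median over the 9 genes that still reached 5 interactions was 0.0. At scores of at least 10, 3 of 10 had fewer and 4 more, against 31.0% fewer of all genes. Condensin genes had 5 of 8 with a listed bait fragment, 2 with more and 1 with fewer, and none was called. NCAPG had 14 and 22 on a fragment with an end of DCAF16.

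Genes with the most alike pattern were those with the smallest sum of differences in the 3 numbers (DMSO, ponatinib and shared), measured over the 2 libraries. For CTCF they were RNASE13, with the identical 0, 9 and 0, then DDN with 1, 9 and 0 and HPDL with 0, 8 and 0. For STAG1 they were NUP210L with 24, 38 and 18, CCNB1IP1 with 24, 37 and 18 and H2AC13 with 25, 38 and 18. Patterns of small numbers were common: 29 genes had the numbers of SMC3, among them ACCS, ADAMTS14 and AK1, and 29 those of WAPL, among them A2M, ACTR8 and AGA. The numbers of RAD21 were found in 16 other genes, such as ARF1, CDK3 and EVPL, those of MED1 in 3 (COL15A1, LYPLA1-TCEA1 and TMEM151A) and those of YY1 in 68, such as ADAMTSL5 and ALDH1L2.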

How the data were processed

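Per the labels' protocols, HindIII cut the crosslinked chromatin, biotin was added at the cut ends before ligation, and promoter fragments were captured on RNA probes. The authors deposited 1 list per library with a bait fragment, its partner and a score, which is used here as deposited. Coordinates are on hg38 (per the submitters' processing notes). Aligner, interaction caller, score definition and threshold: not given in the sources used here.

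Pairs were taken as unordered, so that 91306 ponatinib lines gave 91305 interactions. Shared means the identical fragment pair in both lists. Distances run from midpoint to midpoint. RefSeq genes (GRCh38.p14, 20037 protein-coding) were assigned to listed bait fragments that hold either gene end. Starts came from the RefSeq promoter table. Intervals are exact binomial (Clopper-Pearson) at 95%. With 1 library per group no test was run. The counting code was checked by removing most pairs of randomly chosen genes from a copy of the DMSO list. This checks the code only and says nothing about the calls made between the libraries. Python 3.11.15, pandas 2.3.3 and scipy 1.17.1 were used.

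Members, lists and the rule for named genes (the 8 genes with all partners, called genes of the lists, and up to 3 genes of most alike pattern) were chosen with earlier results of these data known. Alternatives were score minimums of 7 and 10, a ponatinib list cut to the DMSO length, ponatinib numbers scaled down by list length, a pseudocount of 0.5, a minimum of 10 interactions, gene ends within 1 kb, start fragments only, pairs on 1 chromosome, and ends matched within 5 or 10 kb. Counting all bait fragments that overlap a gene was added after seeing the data.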

Additional observations from a re-analysis of the deposited data

How the results depend on the processing

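The share of the 8 genes' interactions in ponatinib, 59.3%, ran from 53.9% with all overlapping bait fragments to 68.8% at scores of at least 7 (15 and 33 interactions). It was above the share of all interactions under every alternative run. With all overlapping bait fragments the interval was 46.0 to 61.7%, and all interactions had 52.1%. The interval left out the share of all interactions only at scores of at least 7 and with start fragments only. CTCF, with 0 in DMSO, supplied 5 of the ponatinib interactions in the first and 9 in the second. The share of pairs in both lists, 25.6%, was 70% at scores of at least 10 (7 of 10 pairs), 53.3% with ends matched within 5 kb and 61.1% within 10 kb. All interactions had 26.9% for identical pairs, 58.1% within 5 kb and 64.6% within 10 kb. Their share at scores of at least 10 is not given here. The 971 genes called higher numbered 520 at scores of at least 7, 216 at 10 and 467 with a minimum of 10 interactions. The 613 called lower numbered 257, 60 and 243. With the ponatinib list cut to the DMSO length 722 were higher and 827 lower, so the balance of higher over lower was turned, and scaled by list length they numbered 671 and 626. The order of 1 gene was turned at scores of at least 7 (RAD21, 66.7% in ponatinib) and of 1 with all overlapping bait fragments (YY1, 45.5%). CTCF ran from 69.6 to 100%, STAG1 from 57.1 to 64.5%, SMC3 from 50 to 83.3%, WAPL from 28.6 to 45.5% and MED1 from 0 to 12.5%. WAPL had no interaction at scores of at least 7, nor had RAD21, MED1 and YY1 at 10. The lists hold no read counts, so what depth limits is unknown.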
